A study of Homo sapiens with 21 samples.

Results

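The genes described here are 43 components of the checkpoints that hold the cell cycle when DNA is damaged or when chromosomes are not yet attached to the spindle. They were chosen by name from a table of 28395 genes, each identified by its NCBI gene number, and all 43 were found in it and passed the filter on low counts, beside 16036 genes tested in all. They were read as a DNA damage arm of 21 genes (the ATM/ATR arm) and a spindle arm of 22 genes, by a rule that uses gene names and no measured value, though the list was drawn up with earlier results of these data known. RNA was measured in Hs578T, a long-used line of triple-negative breast cancer cells with a mesenchymal phenotype and no genetic alteration introduced by the study, after 8 h of treatment. The 21 libraries fall into 7 groups of 3 replicates. The groups are DMSO, the solvent control, THZ531 at 0.1 µM (low dose), THZ531 at 1.0 µM (high dose), lapatinib at 3.16 µM, nilotinib at 1 µM, and each of the latter 2 inhibitors at that dose together with THZ531 at 0.1 µM (the lapatinib combination and the nilotinib combination). THZ531 inhibits the transcriptional kinases CDK12 and CDK13, lapatinib inhibits EGFR and HER2, and nilotinib inhibits BCR-ABL and related tyrosine kinases. The study asked how gene expression responded when a tyrosine kinase inhibitor was added to a low dose of THZ531. It is a single cell line at a single time, and the study describes the samples as derived from independent experiments without saying that the replicate numbers mark them.

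The DNA damage checkpoint starts from kinases that sense broken or stalled DNA. ATM responds to double-strand breaks, and ATR, held to single-stranded DNA by its partner ATRIP, responds to stalled replication forks. They activate the effector kinases CHK2 (CHEK2) and CHK1 (CHEK1), which keep the cyclin B-CDK1 complex shut off by favouring the inhibitory kinases WEE1 and MYT1 (PKMYT1) over the activating CDC25 phosphatases. The spindle checkpoint works later, in mitosis: unattached kinetochores recruit MAD1, MAD2, BUB1, BUBR1 (BUB1B) and BUB3, which keep CDC20 from activating the anaphase-promoting complex. CDK12 phosphorylates the tail of RNA polymerase II during elongation, and loss of its activity is known for lowering the expression of DNA damage response genes.

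Each library held between 97612207 and 112229052 counts, and replicates of a group correlated at 0.99 to 0.994 on the log2 scale across genes. The mesenchymal markers were abundant in every library, with a median of 8067 CPM (a gene's counts scaled to the total of its library, as edgeR gives them) for VIM (vimentin), 3390 for SPARC, 1290 for FN1 (fibronectin), 622 for CDH2 (N-cadherin) and 228 for ZEB1. Of 8 markers of other breast or blood cells, PGR and EPCAM had a median of 0 and 0.0194 CPM, CDH1, ESR1, PECAM1 and PTPRC lay at 0.199, 0.340, 0.416 and 1.27 CPM, and ERBB2 and KRT18 at 35.8 and 105 CPM. With the lapatinib combination, the nilotinib combination and high-dose THZ531, 4, 4 and 3 of 5 mesenchymal markers were higher than with DMSO. Of the 6 other markers that could be tested, 2, 2 and 1 were lower and 2 in each were higher. Higher and lower here mean an adjusted p under 0.05. Of all tested genes 34.3%, 33.7% and 33.1% were higher and 37.8%, 37.3% and 36.8% lower with these treatments, so no shift of cell type is read from the markers. All 13 mitochondrially encoded mRNAs were higher with each of these treatments, and their share of all counts went from 1.25% ± 0.0895 (SD, n = 3) with DMSO to 1.60% ± 0.139, 1.56% ± 0.115 and 1.53% ± 0.219 (SD, n = 3 each).

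Unless stated, levels are CPM scaled between libraries by TMM, the trimmed mean of M values, while a log2 FC is the difference between groups in edgeR's quasi-likelihood fit with its standard error (SE). Called means an adjusted p (Benjamini-Hochberg over all 16036 genes) under 0.05, and strongly called means called with a log2 FC beyond 1 in size. On this scale the median log2 FC of all genes was -0.01 with each of the 3 strong treatments, which are both combinations and high-dose THZ531. Scaling to the mitochondrial mRNAs moved that median to -0.69, -0.63 and -0.55 (lapatinib combination, nilotinib combination, high dose), library size alone to -0.34, -0.31 and -0.27, and the upper quartile to 0.15, 0.13 and 0.19. With these, the share of falls among strongly called genes went from 73.0%, 76.1% and 76.6% to 91.9%, 92.3% and 91.6% (mitochondrial), 85.7%, 86.6% and 86.0% (library size) and 61.3%, 67.5% and 62.2% (upper quartile), and with at least 10 counts in every library it was 80.5%, 84.9% and 87.3%. All changes below are relative to the TMM scale. RNA came from whole cultures, so fewer cells in a phase of the cycle and less RNA per cell cannot be told apart.

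Sequence in front of several of these genes is shown because the arms differ in the short elements they hold there, and because some partner genes with elements in common responded differently. In each line the 150 bases before the annotated start of the gene are given, from RefSeq's promoter windows (GRCh38.p14), with matches in capitals. These are CCAAT (read as ATTGG where it lies on the opposite strand), the cell cycle homology region, CHR (TTTGAA or TTTAAA), which is bound by the complex that times mitotic genes, and E2F-type elements (spelled TTCCCGC, or else TTGGCGC, or else TTCGCGC, or else TTGCCGC), sought on both strands.
CCNB1 (cyclin B1), chr5:69167000-69167149, plus strand: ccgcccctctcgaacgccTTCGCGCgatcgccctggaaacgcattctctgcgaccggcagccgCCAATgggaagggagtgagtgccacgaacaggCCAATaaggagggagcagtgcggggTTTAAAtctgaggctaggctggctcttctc
CCNB2 (cyclin B2), chr15:59104996-59105145, plus strand: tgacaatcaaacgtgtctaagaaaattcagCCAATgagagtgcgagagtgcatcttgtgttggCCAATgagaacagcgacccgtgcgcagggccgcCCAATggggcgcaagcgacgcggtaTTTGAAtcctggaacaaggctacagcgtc
PLK1, chr16:23678739-23678888, plus strand: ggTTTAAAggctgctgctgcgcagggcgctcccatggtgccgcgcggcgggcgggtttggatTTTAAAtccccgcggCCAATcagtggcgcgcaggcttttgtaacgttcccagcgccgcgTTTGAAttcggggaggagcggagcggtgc
CDC20, chr1:43358831-43358980, plus strand: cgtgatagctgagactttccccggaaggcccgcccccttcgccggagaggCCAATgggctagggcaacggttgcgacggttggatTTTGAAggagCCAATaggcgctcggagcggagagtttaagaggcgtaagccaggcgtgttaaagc
TIMELESS, chr12:56449427-56449576, minus strand: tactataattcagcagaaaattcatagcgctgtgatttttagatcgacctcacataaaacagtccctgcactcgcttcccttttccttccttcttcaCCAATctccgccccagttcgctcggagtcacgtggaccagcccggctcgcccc
TIPIN, chr15:66386718-66386867, minus strand: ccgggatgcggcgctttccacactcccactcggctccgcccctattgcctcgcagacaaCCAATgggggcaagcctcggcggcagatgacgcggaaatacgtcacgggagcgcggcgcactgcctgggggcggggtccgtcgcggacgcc
CDC25A, chr3:48188418-48188567, minus strand: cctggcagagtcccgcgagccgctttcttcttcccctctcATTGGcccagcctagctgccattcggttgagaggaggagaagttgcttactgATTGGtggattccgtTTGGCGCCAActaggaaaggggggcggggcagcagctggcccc
In the CDC25A line, TTGGCGCCAA is a pair of overlapping E2F-type matches, TTGGCGC on each strand. CCNB1, CCNB2 and CDC20 each showed more than 1 CCAAT box and 1 CHR, PLK1 showed 1 CCAAT and 3 CHR matches, and CCNB1 also an E2F-type match. TIMELESS and TIPIN, partners in one complex, each had a single CCAAT and no other match in these 150 bases, but TIMELESS also held the E2F-type TTCGCGC at 10 bases past the start, outside the printed stretch, and TIPIN did not.

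Most checkpoint genes fell with the strong treatments. With the lapatinib combination 32 of 43 were called lower and 3 higher, where 37.8% of all tested genes were lower and 34.3% higher. With the nilotinib combination 31 were lower and 5 higher, against 37.3% and 33.7% of all genes, and with high-dose THZ531 29 were lower and 5 higher, against 36.8% and 33.1%. Falls of more than 1 log2 unit were called in 16, 15 and 14 members, where 21.3%, 20.8% and 18.9% of all genes did so. The counts of lower members include RAD17 and MDC1, whose levels cannot be interpreted, as described below. Leaving them out took the ATM/ATR arm from 15, 14 and 14 of 21 lower, 7, 6 and 6 strongly, to 13, 13 and 13 of 19, 5 in each strongly. No member (0 of 43, also at an unadjusted p under 0.05 and by DESeq2) rose by more than 1 log2 unit in any of the 3, while 7.90%, 6.54% and 5.77% of all genes did. With at least 10 counts required in every library, strong rises of all genes went from 1267, 1048 and 925 to 679, 491 and 369. All members but RAD17 and MDC1 had 135 or more counts in every library, so these shares come from genes unlike them in level, and nothing is read from the lack of strong rises. A core of 11 genes was strongly lower with all 3 strong treatments: ATRIP, CDC25A, CDC25B and CDC25C of the ATM/ATR arm and AURKA, AURKB, BUB1B, CCNB1, INCENP, NDC80 and TTK of the spindle arm. In all, 26 members were called lower with every strong treatment, 12 of them in the ATM/ATR arm and 14 in the spindle arm. ATM, PKMYT1 and TIMELESS were called higher with every strong treatment, but none of these calls held on the mitochondrial scale, where ATM and PKMYT1 were called lower with the lapatinib combination and the other values of the 3 genes did not pass the test. The 3 comparisons share the DMSO libraries, so their counts are not independent of each other. The share of all tested genes that met the same rule with all 3 treatments was not counted. The numbers of members called with all 3 are therefore a description, and nothing particular to the members is read from them.

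**Figure D1:**
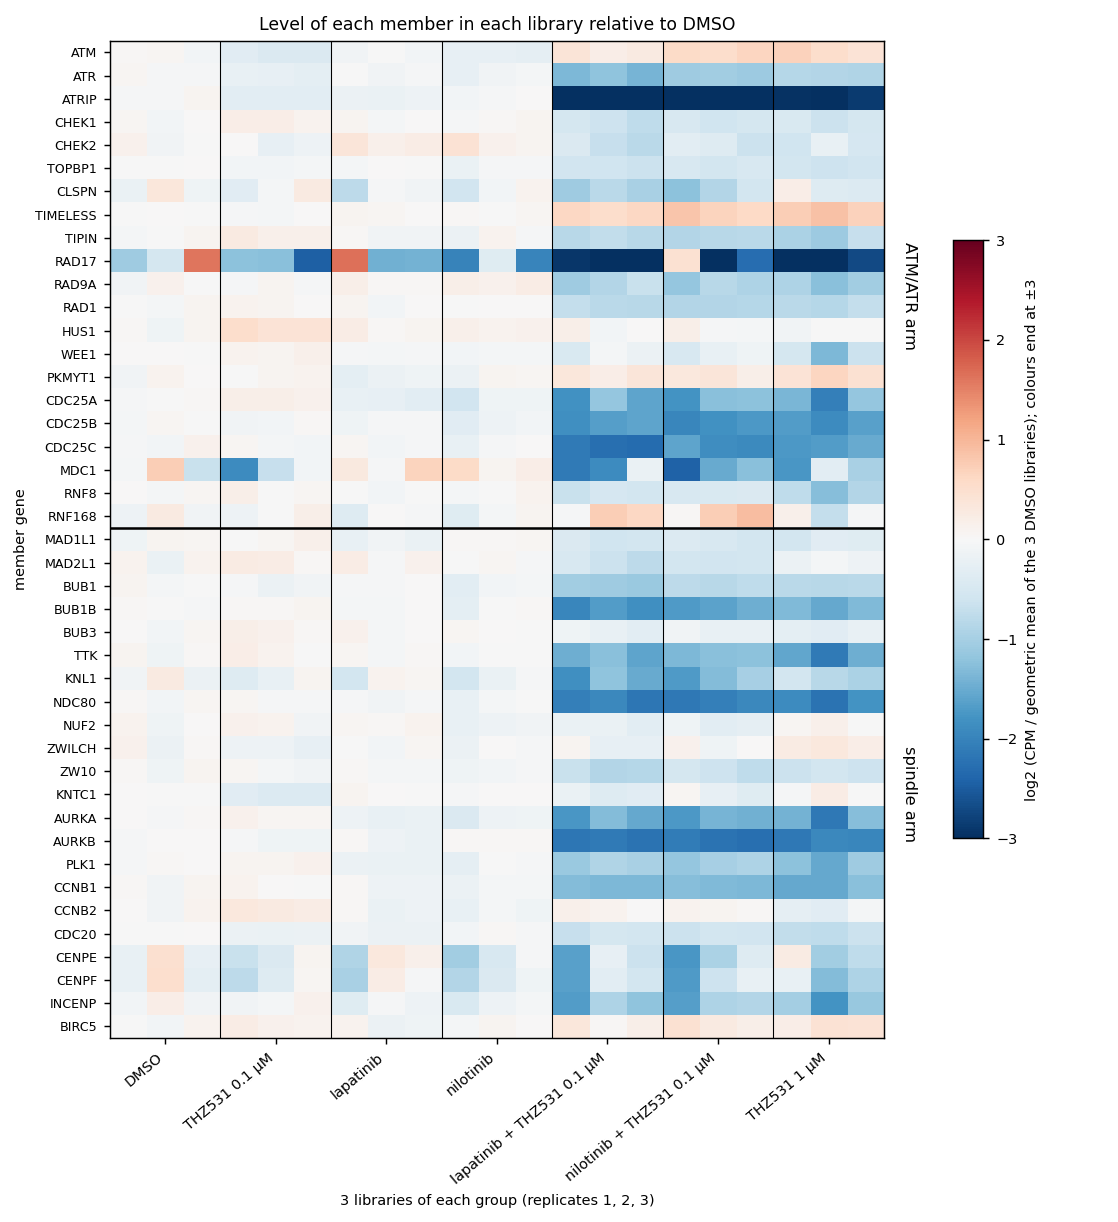
Heat map of the 43 checkpoint genes (rows, grouped by arm) in the 21 libraries (columns, grouped by treatment), as log2 of the CPM over the geometric mean of the DMSO libraries, with colours ending at 3 in either direction. The DMSO, lapatinib, nilotinib and low-dose columns are pale in most rows, with RAD17 and MDC1 as exceptions, and most rows turn to lower values in the columns of both combinations and high-dose THZ531, with ATRIP and CDC25C among the strongest and ATM and TIMELESS going the other way.

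The apical kinases moved in different directions. ATM was found at 62.4, 63.6 and 58.1 CPM in the DMSO libraries, at 80.3, 70.4 and 74.0 with the lapatinib combination, at 91.5, 87.8 and 96.4 with the nilotinib combination and at 98.5, 87.7 and 81.5 with high-dose THZ531. Every library of the strong treatments was above every DMSO library. The log2 FC of ATM was 0.29 ± 0.07, 0.58 ± 0.07 and 0.54 ± 0.07, with adjusted p = 0.00102, 3.2e-07 and 9.74e-07, and it was -0.39, -0.0385 and -0.0121 on the mitochondrial scale and -0.0402 with the lapatinib combination by library size alone. Of these values only that with the lapatinib combination on the mitochondrial scale was called. ATR, its relative for replication stress, was at 74.2, 69.4 and 69.1 CPM with DMSO and 27.8, 30.9 and 26.9, 34.1, 34.3 and 33.5 and 39.0, 38.3 and 38.0 CPM with the strong treatments in the same order. No treated library reached a DMSO library, and the log2 FC was -1.31 ± 0.06, -1.06 ± 0.06 and -0.89 ± 0.06.

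ATRIP, which carries ATR to single-stranded DNA, had the largest fall of the members measured with 135 or more counts in every library. It went from 18.2, 18.2 and 19.6 CPM with DMSO to 1.52, 1.54 and 1.503 with the lapatinib combination, 2.15, 1.56 and 1.94 with the nilotinib combination and 2.38, 1.96 and 2.54 with high-dose THZ531. All treated libraries were far below the DMSO libraries, by 12.3, 9.93 and 8.15 times, or a log2 FC of -3.62 ± 0.10, -3.31 ± 0.10 and -3.03 ± 0.10, with adjusted p = 4.1e-16, 1.04e-15 and 6.16e-15. ATRIP shares 31.6% of its annotated exon bases with TREX1, an exonuclease gene on the same strand, and reads there cannot be assigned to either gene alone. TREX1 was called lower too, by log2 FC of -0.27, -0.26 and -0.60.

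Both effector kinases fell by less. CHEK1 was at 70.5, 64.0 and 68.7 CPM with DMSO and at 46.6, 44.1 and 40.1, 48.4, 44.6 and 46.9 and 49.1, 43.05 and 47.1 with the strong treatments, and all 9 treated libraries lay below the DMSO libraries. Its log2 FC was -0.63 ± 0.07, -0.54 ± 0.07 and -0.54 ± 0.07. CHEK2 was at 8.75, 7.35 and 7.84 CPM with DMSO and at 5.90, 4.90 and 4.53, 6.43, 6.07 and 5.08 and 5.23, 6.83 and 5.57, again with no overlap, and a log2 FC of -0.64 ± 0.13, -0.45 ± 0.13 and -0.44 ± 0.13. The fall of CHEK2 with high-dose THZ531 did not pass the test under upper-quartile scaling, where it was -0.24. CHEK1 shares 18.2% of its exon bases with other genes, most of them with an annotated RNA on the opposite strand, and the libraries were not stranded.

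The checkpoint clamp is a ring of RAD9A, RAD1 and HUS1 that RAD17 loads onto damaged DNA, where TOPBP1 then activates ATR. Its members parted. RAD9A went from 6.93, 8.03 and 7.28 CPM with DMSO to 3.51, 3.99 and 4.62, 3.29, 4.15 and 3.89 and 3.87, 3.08 and 3.62 with the strong treatments, a log2 FC of -0.88 ± 0.11, -0.97 ± 0.11 and -1.07 ± 0.11. RAD1 went from 75.1, 71.6 and 78.9 CPM to 45.9, 42.8 and 42.0, 40.8, 40.5 and 41.4 and 42.8, 41.3 and 45.9, a log2 FC of -0.79, -0.88 and -0.80. For both, the lowest DMSO library was above every treated library. HUS1, in contrast, was at 31.9, 28.6 and 33.0 CPM with DMSO and 34.99, 29.2 and 31.2, 35.05, 30.2 and 29.9 and 28.7, 30.7 and 30.9 CPM with the strong treatments, so the groups overlapped, and its log2 FC of 0.03 ± 0.08, 0.03 ± 0.08 and -0.05 ± 0.08 did not pass the test. By library size alone HUS1 was called lower with all 3 (-0.30, -0.28 and -0.31), as it was on the mitochondrial scale (-0.66, -0.59 and -0.59). TOPBP1 was at 102, 101 and 104 CPM with DMSO and had a log2 FC of -0.60, -0.50 and -0.58, all called.

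The levels of RAD17, and of MDC1, which holds repair factors at breaks, cannot be interpreted. RAD17 had 54, 73 and 326 counts in the DMSO libraries and 6 to 326 over all libraries, and MDC1 had 62, 101 and 39 with DMSO and 9 to 101 over all. All 10 of 10 windows of 60 bases taken from the exons of RAD17 were also found on 1 alternate or unplaced sequence of the hg38 assembly, and all 10 of MDC1 on 7 such sequences. The neighbouring genes TAF9 (0 to 2 counts), FLOT1 (0 to 4) and TUBB (11 to 70), widely expressed genes, were found on such sequences likewise, while no other member had more than 1 such window. The part of these copies in the low counts was not tested. RAD17 was called lower with the lapatinib combination and high-dose THZ531, the latter not without DMSO replicate 3, the library with 326 counts (-2.18), and it was called lower with the nilotinib combination without its replicate 1 (-3.34), on the mitochondrial scale (-1.94) and with a covariate for transcript length described below (-1.70). MDC1 was called lower with both combinations, with lapatinib not without DMSO replicate 2 (-0.80) or lapatinib combination replicate 1 (-0.92) or 2 (-0.98) nor with the upper quartile (-1.08). At the high dose MDC1 did not pass, but it was called lower without DMSO replicate 3 (-1.28), lapatinib combination replicate 3 (-1.01) or high-dose replicate 2 (-1.41), by library size alone (-1.27) and on the mitochondrial scale (-1.51). With RAD17 and MDC1 left out, a choice made after their values were seen, the ATM/ATR arm had 13, 13 and 13 of 19 members lower. Of all tested genes 37.8%, 37.3% and 36.8% were.

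Of the mediators that carry the signal from ATR to CHK1 at the fork, TIMELESS and TIPIN form a complex, and CLSPN (claspin) presents CHK1 to ATR. TIMELESS was at 62.6, 63.6 and 62.1 CPM with DMSO, 96.8, 90.6 and 97.0 with the lapatinib combination, 111.8, 100.0 and 94.3 with the nilotinib combination and 105, 116 and 101 with high-dose THZ531. Every treated library was above the DMSO libraries, and the log2 FC was 0.60 ± 0.06, 0.70 ± 0.06 and 0.77 ± 0.06, or -0.0882, 0.09 and 0.23 on the mitochondrial scale, where it turned with the lapatinib combination. TIPIN was at 13.8, 14.1 and 15.1 CPM with DMSO and at 8.02, 8.53 and 8.04, 7.72, 8.09 and 8.19 and 7.43, 6.69 and 8.89 with the strong treatments. Its treated libraries were all below the DMSO libraries, with a log2 FC of -0.80 ± 0.09, -0.84 ± 0.09 and -0.90 ± 0.09. CLSPN was at 32.9, 47.9 and 34.5 CPM with DMSO, 18.0, 21.8 and 19.4 and 16.2, 20.7 and 25.9 with the combinations and 43.4, 29.0 and 28.6 with high-dose THZ531. It fell with both combinations (log2 FC -0.96 and -0.88), while the high-dose libraries overlapped those of DMSO (log2 FC -0.19 ± 0.23, adjusted p = 0.468), with a fall called on the mitochondrial scale (-0.75).

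The ubiquitin ligases RNF8 and RNF168, which act in turn at double-strand breaks, did not move together. RNF8 was at 16.3, 15.4 and 16.8 CPM with DMSO and at 10.2, 11.4 and 10.99, 11.6, 11.8 and 11.9 and 9.52, 6.70 and 8.85, with a log2 FC of -0.57 ± 0.10, -0.46 ± 0.10 and -0.95 ± 0.10. RNF168 was at 28.5, 38.4 and 29.8 CPM with DMSO, 31.3, 53.7 and 49.5 and 32.6, 52.9 and 60.9 with the combinations and 35.6, 19.6 and 31.4 with high-dose THZ531. Replicate 1 of each combination lay among the DMSO libraries and the other replicates above them. The rise was called with the nilotinib combination (log2 FC 0.60 ± 0.23, adjusted p = 0.0277) and not with the lapatinib combination (0.48 ± 0.23, adjusted p = 0.073). RNF168 was called higher with the lapatinib combination under DESeq2 or its size factors (0.53), the upper quartile (0.63), only the groups compared (0.49), the transcript-length covariate (0.45), and without DMSO replicate 2 (0.62), lapatinib combination replicate 1 (0.68), nilotinib combination replicate 1 or high-dose replicate 2 (0.48 each). The call with the nilotinib combination was lost without DMSO replicate 1 (0.52) or 3 (0.55) or nilotinib combination replicate 2 (0.54) or 3 (0.41), and by library size alone (0.30), and on the mitochondrial scale the value was -0.0304. At the high dose RNF168 was called lower on the mitochondrial scale (-0.71).

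At the gate to mitosis all 3 CDC25 phosphatases, which remove the inhibitory phosphates from CDK1 and CDK2, fell by more than 1 log2 unit with each strong treatment. CDC25C went from 28.0, 27.2 and 31.3 CPM with DMSO to 6.63, 6.02 and 5.79 with the lapatinib combination, 9.57, 7.87 and 7.63 with the nilotinib combination and 8.67, 9.03 and 10.0 with high-dose THZ531. The groups were far apart, with a log2 FC of -2.23 ± 0.10, -1.79 ± 0.10 and -1.64 ± 0.10. CDC25B went from 236, 256 and 245 CPM to 68.9, 77.8 and 81.6, 62.8, 69.2 and 74.0 and 77.2, 66.6 and 79.1, a log2 FC of -1.69 ± 0.09, -1.84 ± 0.09 and -1.73 ± 0.09. CDC25A, whose promoter is shown above, went from 26.6, 26.97 and 27.8 CPM to 7.74, 12.1 and 9.05, 7.89, 11.5 and 11.5 and 10.5, 6.58 and 12.1, a log2 FC of -1.50 ± 0.19, -1.40 ± 0.19 and -1.48 ± 0.19. No treated library of any CDC25 gene reached a DMSO library.

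PKMYT1 was at 35.8, 41.0 and 38.7 CPM with DMSO and at 48.7, 43.9 and 49.5, 47.8, 49.6 and 43.7 and 51.0, 60.6 and 53.2 with the strong treatments, all above the DMSO libraries. Its log2 FC was 0.30 ± 0.09, 0.29 ± 0.09 and 0.51 ± 0.09, but -0.38, -0.33 and -0.0212 on the mitochondrial scale and -0.03 and -0.0134 with the combinations by library size alone. PKMYT1 shares 16.3% of its exon bases with PAQR4 on the opposite strand, and PAQR4 was lower with the lapatinib combination and high-dose THZ531 (log2 FC -0.44 and -0.53) and at -0.20 with the nilotinib combination, which did not pass the test. WEE1 was at 63.8, 63.4 and 62.5 CPM with DMSO, 46.0, 60.6 and 56.3 and 45.1, 53.8 and 58.2 with the combinations and 43.99, 24.8 and 40.5 with high-dose THZ531. It fell with high-dose THZ531 (log2 FC -0.80 ± 0.14, adjusted p = 5.65e-05), whereas its values with the combinations (-0.22 ± 0.14 and -0.27 ± 0.14) did not pass the test, although all 6 libraries lay below those of DMSO. By library size alone, on the mitochondrial scale or without high-dose replicate 2, WEE1 was called lower with both combinations, at -0.55 and -0.57, -0.91 and -0.90, and -0.22 and -0.27. With the nilotinib combination it was also called with only the groups compared (-0.27) and the transcript-length covariate (-0.28).

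Several members share exon bases with other annotated genes on either strand besides those named, RAD9A 11%, ZWILCH 10.7%, BUB1B 10.6% and PLK1 9.9%, and reads from such bases cannot be assigned to a gene with certainty.

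**Figure D2:**
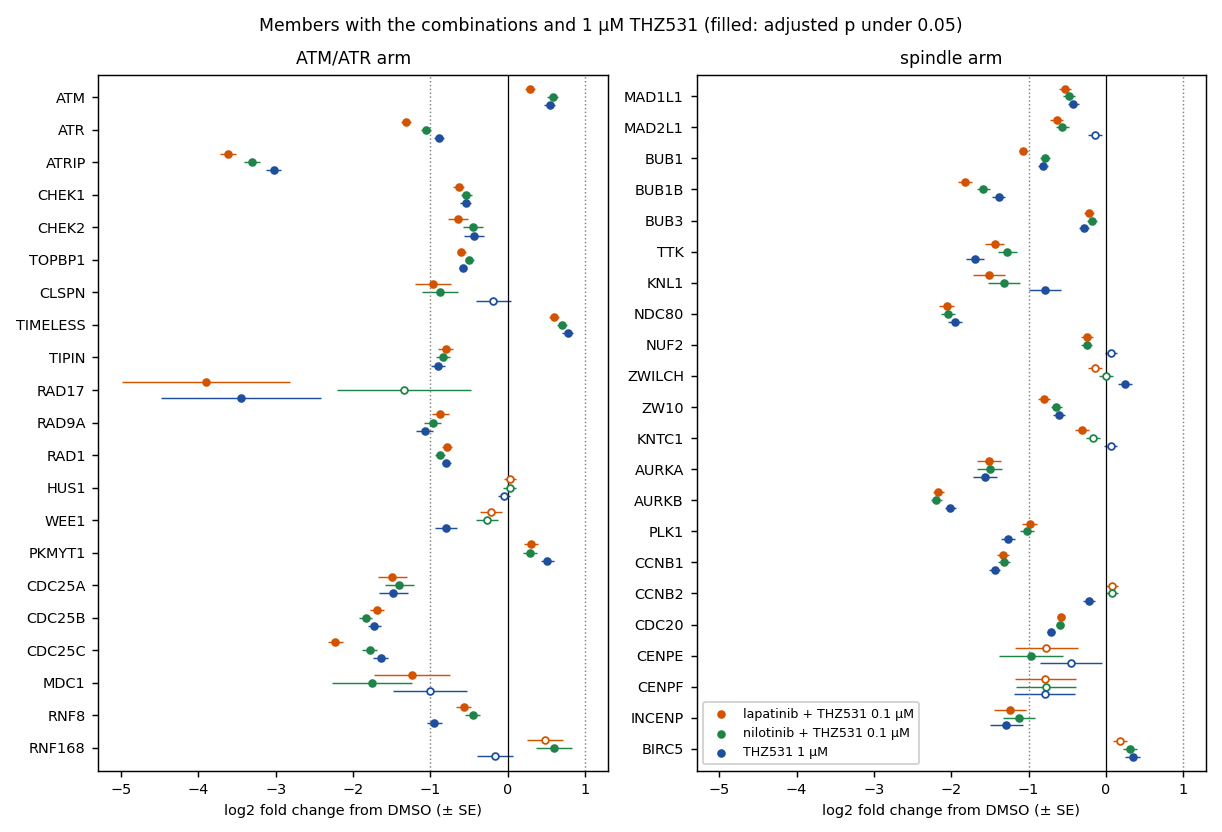
Log2 FC against DMSO (horizontal axis) of each checkpoint gene with both combinations and high-dose THZ531, with bars of 1 SE, in separate panels for the ATM/ATR arm and the spindle arm; filled points have an adjusted p under 0.05 and dotted lines stand at -1 and 1. Most points of both panels lie left of 0, ATRIP reaches -3.62, and ATM, TIMELESS and PKMYT1 lie right of 0 with all 3 treatments.

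In the spindle checkpoint proper, all 7 core genes fell with both combinations and 6 with high-dose THZ531. BUB1B, which encodes the kinase-like inhibitor of the anaphase-promoting complex, was at 82.4, 80.6 and 79.3 CPM with DMSO, 20.9, 25.2 and 22.6 with the lapatinib combination, 25.01, 26.6 and 29.2 with the nilotinib combination and 32.2, 28.1 and 32.5 with high-dose THZ531. The treated libraries were all under the DMSO libraries, with a log2 FC of -1.82 ± 0.09, -1.59 ± 0.09 and -1.39 ± 0.09 and adjusted p = 4.33e-13, 3.2e-12 and 3.23e-11. BUB3, the adaptor that binds both BUB1 and BUB1B, moved little. It was at 356, 334 and 368 CPM with DMSO and at 321, 302 and 284, 328, 301 and 302 and 289, 279 and 303, with a log2 FC of -0.22 ± 0.06, -0.18 ± 0.06 and -0.28 ± 0.06, all called. All BUB3 calls were lost with upper-quartile scaling (-0.06, -0.04 and -0.08), and that with the nilotinib combination also under DESeq2 and its size factors (-0.13), with only the groups compared (-0.18) and without DMSO replicate 3 (-0.15) or nilotinib combination replicate 2 (-0.16).

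TTK, the kinase MPS1 that starts the checkpoint signal at the kinetochore, went from 95.6, 83.2 and 92.8 CPM with DMSO to 32.6, 37.7 and 30.01, 35.8, 37.8 and 38.7 and 30.5, 20.8 and 32.8, a log2 FC of -1.44 ± 0.12, -1.27 ± 0.12 and -1.69 ± 0.12. BUB1 went from 179, 162 and 168 CPM to 82.9, 81.5 and 78.7, 99.1, 95.0 and 101 and 96.3, 95.7 and 97.3, a log2 FC of -1.07, -0.79 and -0.82. In neither did groups overlap with DMSO. MAD2L1, the template-bound inhibitor MAD2, was at 69.2, 56.8 and 69.3 CPM with DMSO, 46.3, 41.4 and 37.8 and 44.05, 43.8 and 44.4 with the combinations and 57.4, 61.8 and 58.2 with high-dose THZ531. It fell with the combinations (log2 FC -0.64 and -0.56) and overlapped DMSO at the high dose (-0.14 ± 0.09, adjusted p = 0.166), where it was called lower without DMSO replicate 2 (-0.23), by library size alone (-0.40) and on the mitochondrial scale (-0.69). MAD1L1, which holds MAD2 at kinetochores, fell too, with a log2 FC of -0.53, -0.48 and -0.42, though 99.7% of its exon bases are also annotated as a readthrough gene on the same strand. CDC20, the checkpoint's target and the most abundant member per kilobase of transcript with DMSO, was at 401, 404 and 407 CPM with DMSO and fell, with a log2 FC of -0.58, -0.59 and -0.71.

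At the outer kinetochore, NDC80 and NUF2 encode partner subunits of the complex that grips microtubules, and only NDC80 fell strongly. NDC80 was at 93.8, 87.0 and 95.3 CPM with DMSO and at 22.1, 23.9 and 20.3, 20.9, 22.1 and 24.1 and 24.9, 19.9 and 26.6 with the strong treatments, a log2 FC of -2.06 ± 0.10, -2.04 ± 0.10 and -1.95 ± 0.10. NUF2 was at 78.1, 66.7 and 73.0 CPM with DMSO and at 62.7, 63.4 and 58.1, 65.8, 57.8 and 59.7 and 75.9, 80.8 and 71.9. It was called slightly lower with the combinations (-0.24 ± 0.08 and -0.25 ± 0.08), calls that were lost with upper-quartile scaling (-0.09 and -0.11), and it overlapped DMSO at the high dose (0.07 ± 0.08), where it was called lower by library size alone (-0.19) and on the mitochondrial scale (-0.48) and higher with the upper quartile (0.27). KNL1, the scaffold on which BUB proteins gather, went from 59.0, 76.6 and 56.3 CPM with DMSO to 17.6, 27.4 and 22.3, 19.6, 25.6 and 31.6 and 43.4, 35.3 and 32.5, a log2 FC of -1.51 ± 0.21, -1.32 ± 0.21 and -0.79 ± 0.20.

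ZW10, ZWILCH and KNTC1 (ROD) form the RZZ complex, which brings dynein and MAD1 to kinetochores. ZW10 was at 79.8, 71.8 and 83.0 CPM with DMSO and at 48.9, 42.4 and 43.1, 53.9, 50.4 and 46.3 and 50.0, 53.2 and 50.6, lower in all 9 treated libraries, with a log2 FC of -0.80 ± 0.07, -0.64 ± 0.07 and -0.61 ± 0.07. ZWILCH was at 66.9, 54.5 and 62.4 CPM with DMSO and at 64.1, 51.2 and 51.6, 66.3, 56.2 and 61.3 and 72.2, 75.6 and 69.9. Its values with the combinations (-0.14 and 0.00) did not pass the test. It was called lower with both by library size alone (-0.47 and -0.30) and on the mitochondrial scale (-0.82 and -0.63), and with the lapatinib combination without DMSO replicate 2 (-0.22) or lapatinib combination replicate 1 (-0.25). With high-dose THZ531 ZWILCH was called higher (0.24 ± 0.09, adjusted p = 0.0227), a call lost without DMSO replicate 2 (0.16) or high-dose replicate 2 (0.21), and the value was -0.0155 by library size alone and -0.31 on the mitochondrial scale. KNTC1 was at 35.8, 35.2 and 34.7 CPM with DMSO and at 30.7, 27.1 and 27.8, 36.9, 29.8 and 27.6 and 34.4, 41.0 and 34.7, called lower only with the lapatinib combination (-0.31 ± 0.09), where it did not pass with upper-quartile scaling (-0.15). KNTC1 was called lower with the nilotinib combination without replicate 1 of that group (-0.30), by library size alone (-0.47), on the mitochondrial scale (-0.78) and with the transcript-length covariate (-0.17). At the high dose it was called higher with the upper quartile (0.26) and lower on the mitochondrial scale (-0.48).

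CENPF and CENPE, large proteins of the outer corona, varied widely between replicates. CENPF was at 156, 261 and 150.3 CPM with DMSO, 59.4, 146 and 124 with the lapatinib combination, 56.0, 119 and 157 with the nilotinib combination and 158, 74.4 and 95.9 with high-dose THZ531. The highest treated library of each group reached or nearly reached the lowest DMSO library, and the log2 FC of -0.78 ± 0.39, -0.77 ± 0.39 and -0.79 ± 0.39 did not pass the test. CENPE was at 23.7, 38.5 and 23.5 CPM with DMSO and at 8.94, 23.4 and 17.8, 8.29, 14.5 and 21.1 and 33.0, 13.4 and 16.3, called lower only with the nilotinib combination (-0.97 ± 0.41, adjusted p = 0.0417). That call was lost without DMSO replicate 2 (-0.69), nilotinib combination replicate 1 (-0.68) or replicate 2 (-0.96), with the upper quartile (-0.83) and under DESeq2 (-0.92). Both genes were called lower with the lapatinib combination without its replicate 2 (-1.04 for CENPF and -1.10 for CENPE). CENPF was called lower without nilotinib combination replicate 3 (-1.11) or high-dose replicate 1 (-1.15), with only the groups compared in the lapatinib combination (-0.77) and the high dose (-0.76), by library size alone with all 3 (-1.11, -1.07 and -1.05) and on the mitochondrial scale (-1.46, -1.40 and -1.35). CENPE was called lower with the lapatinib combination by library size alone (-1.097), on the mitochondrial scale (-1.45) and with only the groups compared (-0.76), and at the high dose on the mitochondrial scale (-1.03).

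Libraries of a group also differed in how long and short transcripts were represented. The median change of 2603 genes with transcripts of 6000 bases or more, less that of 4475 genes under 2000 bases, was -0.95, -0.66 and -0.76 log2 units in the lapatinib combination libraries, -0.87, -0.68 and -0.52 in the nilotinib combination libraries and -0.52, -0.88 and -0.75 at the high dose, against 0.03, 0.06 and -0.09 with DMSO. Replicate 1 had the lowest index of each combination group and the highest of the high-dose group. CENPF, CENPE, KNL1, INCENP, CLSPN and RNF168, with transcripts of 4114 to 10290 bases, each had their lowest level of a combination group and their highest level of the high-dose group in that replicate. Not all long members did so. KNTC1 (6974 bases) and BUB3 (7703 bases) had their highest level of each combination group in replicate 1, and ATM (12915 bases) had its highest of the lapatinib combination group there. With the index as a covariate, a choice made after the values were seen, CENPF was called lower with all 3 strong treatments (-0.85, -0.87 and -0.84) and CENPE with the lapatinib combination and the high dose (-0.86 and -0.55). The index moved with the strong treatments themselves, and its part in the members' changes was not tested.

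The mitotic kinases AURKB and AURKA and cyclin B1 were among the 11 members strongly lower with all 3 strong treatments, and the kinase PLK1 fell by less than these. AURKB, the catalytic subunit of the chromosomal passenger complex, went from 81.6, 84.0 and 84.7 CPM with DMSO to 18.6, 19.3 and 17.8 with the lapatinib combination, 19.4, 18.0 and 17.3 with the nilotinib combination and 18.9, 21.7 and 21.5 with high-dose THZ531. Each treated library was far below all DMSO libraries, and the log2 FC was -2.17 ± 0.07, -2.19 ± 0.07 and -2.01 ± 0.07, with adjusted p = 3.01e-15, 2.9e-15 and 2.17e-14. AURKA, which matures centrosomes, went from 186, 179 and 188 CPM to 54.9, 75.3 and 63.8, 56.1, 70.5 and 68.3 and 69.5, 41.5 and 76.5, a log2 FC of -1.51 ± 0.16, -1.50 ± 0.16 and -1.56 ± 0.16. PLK1, which drives entry into mitosis, went from 228, 239 and 237 CPM to 109, 126 and 120.2, 105, 118 and 123 and 99.6, 81.2 and 111.9, a log2 FC of -0.99 ± 0.09, -1.02 ± 0.09 and -1.27 ± 0.09.

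The B cyclins, the activating partners of CDK1, responded differently. CCNB1 was at 342, 313 and 353 CPM with DMSO and at 137, 132 and 132, 138, 134 and 131 and 116, 115 and 140.2 with the strong treatments, a log2 FC of -1.33 ± 0.07, -1.32 ± 0.07 and -1.44 ± 0.07. CCNB2 was at 105, 98.05 and 112 CPM with DMSO and at 116, 112.2 and 106, 113, 111 and 108 and 86.4, 82.5 and 102. Its combination libraries lay within or just above the DMSO range, and the log2 FC of 0.08 ± 0.08 and 0.07 ± 0.08 did not pass the test, but CCNB2 was called lower with both by library size alone (-0.24 and -0.23) and on the mitochondrial scale (-0.60 and -0.55) and higher with the upper quartile (0.24 and 0.21). With high-dose THZ531 CCNB2 was called lower (-0.22 ± 0.08, adjusted p = 0.0163), a call lost without DMSO replicate 3 (-0.17), high-dose replicate 1 (-0.19) or replicate 2 (-0.16), with upper-quartile scaling (-0.02), with only the groups compared (-0.20) and under DESeq2 and its size factors (-0.19). As the sequences above show, the stretch before CCNB1 held 2 CCAAT boxes and a CHR and that before CCNB2 held 3 CCAAT boxes and a CHR.

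In the chromosomal passenger complex, which corrects faulty attachments, the scaffold and the kinase fell while survivin did not. INCENP went from 105, 128 and 104 CPM with DMSO to 35, 59.1 and 48.3, 35.6, 58.3 and 60.7 and 54.9, 32.1 and 50.9, a log2 FC of -1.24 ± 0.21, -1.12 ± 0.21 and -1.29 ± 0.21. BIRC5 (survivin) was at 395, 378 and 429 CPM with DMSO and at 507, 408 and 452, 552, 484 and 453 and 459, 538 and 530.3. It was called higher with the nilotinib combination (0.31 ± 0.09) and high-dose THZ531 (0.35 ± 0.09) but was at -0.31 and -0.19 on the mitochondrial scale, and neither call held by library size alone (0.01 and 0.09). With the lapatinib combination BIRC5 (0.19 ± 0.09) did not pass the test, was called higher without DMSO replicate 3 (0.24) or lapatinib combination replicate 2 (0.26), under DESeq2 and its size factors (0.24), with the upper quartile (0.34) and with the transcript-length covariate (0.18), and was called lower on the mitochondrial scale (-0.50).

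The ratio of partner genes inside a library does not depend on the scaling between libraries. The pairs were chosen after the members' values were seen, and with 3 libraries a group an exact permutation test cannot go below 0.10, so the ratios are a description. The log2 ratio of ATRIP to ATR lay between -2.03 and -1.82 in the DMSO libraries and changed by -2.30, -2.26 and -2.15 (lapatinib combination, nilotinib combination, high dose). That of TIPIN to TIMELESS changed by -1.40, -1.54 and -1.68 from a DMSO mean of -2.13 ± 0.0783 (SD, n = 3). NDC80 to NUF2, which stood at 0.34 ± 0.0693 with DMSO, changed by -1.82, -1.79 and -2.03. CCNB1 to CCNB2, at 1.68 ± 0.0233 with DMSO, changed by -1.42, -1.40 and -1.22.

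Inside the passenger complex AURKB to BIRC5 changed by -2.35, -2.50 and -2.36 and INCENP to BIRC5 by -1.45, -1.46 and -1.66. Among clamp subunits RAD1 to HUS1 changed by -0.81, -0.90 and -0.75 and RAD9A to HUS1 by -0.91, -0.999 and -1.03, and BUB1B to BUB3 changed by -1.60, -1.41 and -1.11 and BUB1 to BUB3 by -0.84, -0.61 and -0.53. At the CDK1 gate CDC25C to PKMYT1 changed by -2.53, -2.08 and -2.15 and CDC25A to WEE1 by -1.29, -1.14 and -0.69. In the RZZ complex ZW10 to ZWILCH changed by -0.66, -0.64 and -0.85. In all of these the strongly treated libraries did not overlap those of DMSO. The ratios of CHEK1 to CHEK2 (0.01, -0.09 and -0.10) and of KNTC1 to ZWILCH (-0.17, -0.18 and -0.19) overlapped the DMSO libraries with every strong treatment, and AURKA to AURKB changed by 0.64 and 0.68 with the combinations and by 0.40 at the high dose, where it overlapped.

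**Figure D3:**
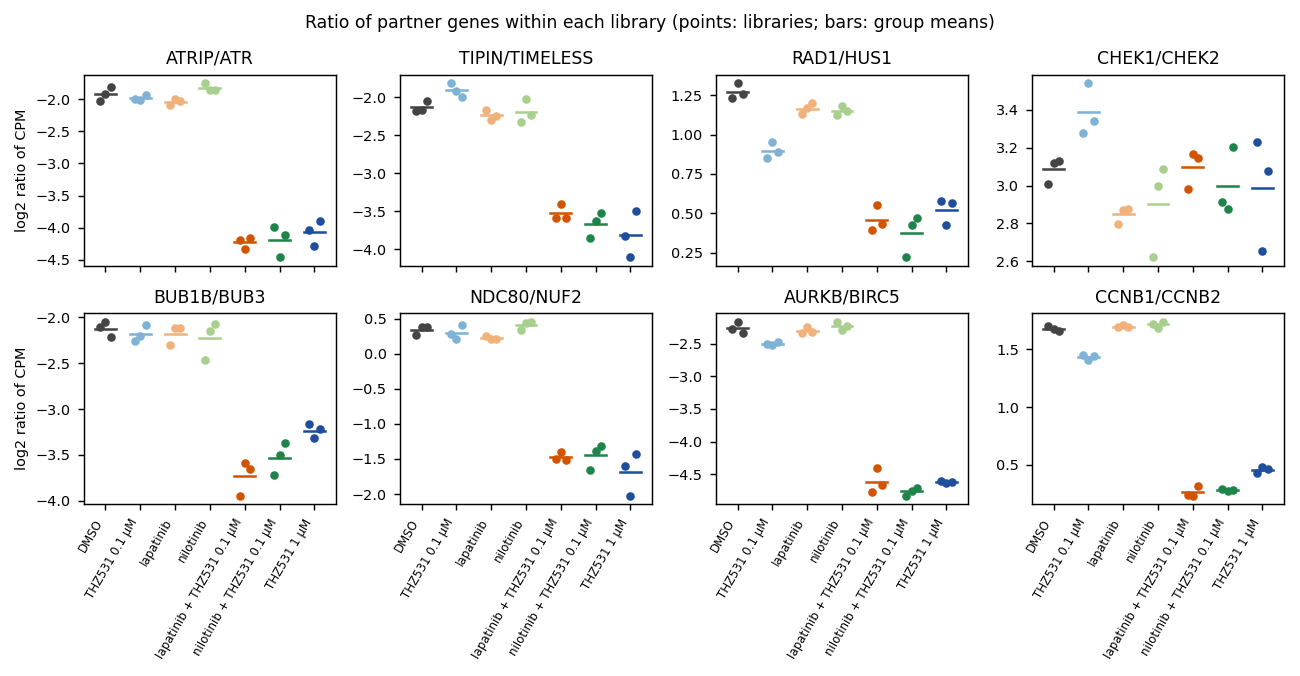
Log2 ratio of the CPM of partner genes (vertical axis) in each of the 21 libraries (points, by treatment along the horizontal axis) for 8 pairs. In ATRIP to ATR, TIPIN to TIMELESS, NDC80 to NUF2, AURKB to BIRC5 and CCNB1 to CCNB2 the libraries of both combinations and high-dose THZ531 form a separate lower cluster, and in CHEK1 to CHEK2 they overlap the DMSO libraries.

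Low-dose THZ531 alone changed few members. Lower were ATM, ATR, ATRIP, KNTC1 and CDC20, 5 of 43, where 4.31% of all tested genes were lower, and HUS1 and CCNB2 were higher, 2 of 43, where 1.78% were. ATM was at 48.3, 45.4 and 45.3 CPM, below every DMSO library, with a log2 FC of -0.41 ± 0.07 and adjusted p = 0.00153. The call was opposite to that with the strong treatments, and high-dose against low-dose THZ531 gave ATM a log2 FC of 0.95 ± 0.07 with adjusted p = 4.12e-10. ATR was at 60.5, 60.1 and 58.0 CPM (log2 FC -0.25 ± 0.06) and ATRIP at 15.1, 14.9 and 15.1 CPM (-0.32 ± 0.09), so all 3 apical genes were lower at the low dose. KNTC1, which had been near the DMSO level with high-dose THZ531, was at 27.8, 26.6 and 26.5 CPM (-0.39 ± 0.09) at the low dose, and the direct comparison of high with low dose gave 0.45 ± 0.09, with adjusted p = 0.000186.

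HUS1 went the other way, at 44.9, 41.4 and 41.1 CPM with the low dose, all above the DMSO libraries, with a log2 FC of 0.45 ± 0.08 and adjusted p = 0.00268. CCNB2 was at 131, 127 and 123 CPM, with a log2 FC of 0.27 ± 0.08 and adjusted p = 0.0421, and CDC20 at 356, 349 and 360.1 CPM, with -0.19 ± 0.05 and adjusted p = 0.0431. The ratios that hold these genes moved with them, by -0.38 for RAD1 to HUS1 and -0.24 for CCNB1 to CCNB2, without overlap with DMSO. Pairs without a called member also lay outside DMSO: CHEK1 to CHEK2 (0.30), TIPIN to TIMELESS (0.22), AURKA to AURKB (0.17), ZW10 to ZWILCH (0.15), BUB1 to BUB3 (-0.22) and AURKB to BIRC5 (-0.24). NDC80 to NUF2, INCENP to BIRC5, BUB1B to BUB3, CDC25A to WEE1 and CDC25C to PKMYT1 overlapped DMSO. RAD1 to HUS1 lay outside DMSO with lapatinib alone (-0.11) and nilotinib alone (-0.12) too. The number of members called at the low dose depended on single libraries. It was 3 without DMSO replicate 1, 4 without DMSO replicate 2, 3, 2 and 2 without low-dose replicate 1, 2 or 3, and 4 without lapatinib replicate 3 or nilotinib replicate 3. It was 3 with no filter on low counts and 0 on the mitochondrial scale.

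**Figure D4:**
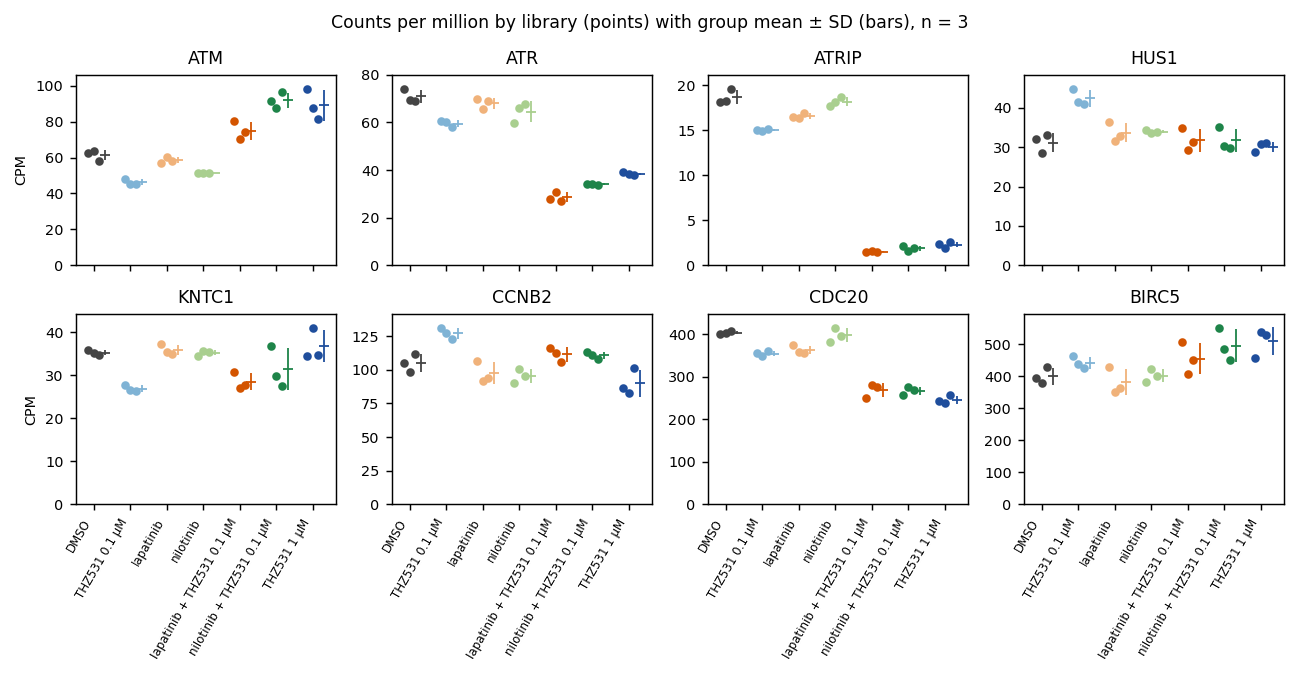
CPM (vertical axis) of ATM, ATR, ATRIP, HUS1, KNTC1, CCNB2, CDC20 and BIRC5 in each library (points) by treatment (horizontal axis), with the mean and SD of each group of 3. ATM is lowest with low-dose THZ531 and above the DMSO libraries with the strong treatments, ATR and ATRIP are lower in both, and HUS1 is highest with the low dose.

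Lapatinib alone and nilotinib alone changed no member by edgeR's quasi-likelihood test, where 0.312% and 0.343% of all tested genes were called in either direction. At an unadjusted p under 0.05, 3 and 5 of 43 members differed from DMSO, and the DESeq2 Wald test called 0 and 1. The largest values with lapatinib in members other than RAD17 and MDC1 were -0.29 ± 0.23 for CLSPN and -0.26 ± 0.18 for CDC25A, and with nilotinib -0.50 ± 0.39 for CENPF and -0.49 ± 0.41 for CENPE.

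Whether low-dose THZ531 acted differently in the presence of each inhibitor was tested as an interaction, the change from inhibitor to combination less the change from DMSO to low dose. With lapatinib 29 of 43 members had a more negative and 3 a more positive effect of the low dose, where 32.0% and 28.2% of all genes did. With nilotinib 28 were more negative and 2 more positive, where 31.2% and 25.6% of all genes were. ATRIP had the largest interaction of the members with 135 or more counts in every library, -3.13 ± 0.13 with lapatinib and -2.96 ± 0.13 with nilotinib, and CDC25C (-2.18 and -1.68), AURKB (-1.97 and -2.13) and NDC80 (-2.00 and -1.95) followed. ATM had interactions of the opposite sign, 0.76 ± 0.10 with lapatinib and 1.25 ± 0.10 with nilotinib, as did TIMELESS (0.57 and 0.70), and PKMYT1 with lapatinib (0.45). HUS1, which rose with the low dose alone, had interactions of -0.53 ± 0.12 and -0.54 ± 0.12. CCNB2, KNTC1, ZWILCH, BIRC5 and WEE1 had none that passed, nor did CLSPN, RNF168, CENPE, CENPF, RAD17 and MDC1.

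Going from the low to the high dose of THZ531 lowered 30 members and raised 5 (ATM, TIMELESS, PKMYT1, ZWILCH and KNTC1), where 35.9% and 34.3% of all genes went down and up. Between doses ATRIP had a log2 FC of -2.71 and NDC80 of -1.95. In the ATM/ATR arm 14 of 21 members were lower and in the spindle arm 16 of 22.

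Direct tests set the combinations against high-dose THZ531 without the DMSO libraries. With the lapatinib combination 13 members were lower and 5 higher than with the high dose, where 16.1% and 12.8% of all genes were. The lower members were ATM, ATR, ATRIP, CLSPN, TIMELESS and CDC25C of the ATM/ATR arm and MAD2L1, BUB1, BUB1B, KNL1, NUF2, ZWILCH and KNTC1 of the spindle arm, with CLSPN at -0.77 ± 0.23 and KNL1 at -0.72 ± 0.21. The higher members were WEE1 (0.58 ± 0.14), RNF8 (0.38), RNF168 (0.64), PLK1 (0.28) and CCNB2 (0.30). With only these groups in the fit 8 members were called.

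With the nilotinib combination 4 members were lower than at the high dose (ATR, CLSPN, MAD2L1 and NUF2) and 5 higher (WEE1, RNF8, RNF168, TTK and CCNB2), where 13.0% and 11.2% of all genes were. WEE1 was at 0.52 ± 0.14 and CLSPN at -0.69 ± 0.23. The 9 calls became 15 by library size alone, 16 with the upper quartile, 2 with only these groups in the fit and 19 with the transcript-length index as a covariate. With lapatinib in place of nilotinib as the partner of THZ531, 3 members were lower and 0 higher, where 0.736% of all genes were lower and 0.730% higher. At an unadjusted p under 0.05, 8 members were lower and 0 higher, and the DESeq2 Wald test called 4 lower and 0 higher. The 3 members were ATM (-0.29 ± 0.07), CDC25C (-0.44 ± 0.10) and BUB1 (-0.28 ± 0.06). None was called with only these groups in the fit, on the mitochondrial scale, or without lapatinib combination replicate 3 or nilotinib combination replicate 1, and 1 was called without lapatinib combination replicate 2 or nilotinib combination replicate 2 or 3.

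The arms were set side by side by their counts and medians. With the lapatinib combination 15 of 21 ATM/ATR members were lower, 7 of them strongly, and 17 of 22 spindle members, 9 of them strongly, with a median log2 FC of -0.79 in each. With the nilotinib combination 14 and 17 were lower, 6 and 9 strongly, with medians of -0.84 and -0.78, and with high-dose THZ531 14 and 15 were lower, 6 and 8 strongly, with medians of -0.80 and -0.75. Higher were 3, 4 and 3 ATM/ATR members and 0, 1 and 2 spindle members. Of all tested genes 37.8%, 37.3% and 36.8% were lower, 21.3%, 20.8% and 18.9% strongly, and 34.3%, 33.7% and 33.1% were higher. Leaving out RAD17 and MDC1, whose levels cannot be interpreted, gave the ATM/ATR arm medians of -0.64, -0.54 and -0.80 and 5 strongly lower members in each, so its medians with the combinations were then less negative than those of the spindle arm. In single libraries of the strong treatments, the spindle median less the ATM/ATR median ran from -0.48 to 0.16 log2 units, with both signs in the nilotinib combination and high-dose groups. Genes of an arm are not replicates, so the difference between arms was not tested.

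Within arms the changes spread by role. In the ATM/ATR arm the 5 CDK1 gate genes had a median log2 FC of -1.496, -1.40 and -1.48, the 3 apical genes -1.31, -1.06 and -0.89 and the 2 effector kinases -0.64, -0.49 and -0.49. The 5 genes of the clamp, its loader and its activator stood at -0.79, -0.88 and -0.80 and the 6 mediators at -0.69, -0.65 and -0.54. These medians include RAD17 and MDC1, whose levels cannot be interpreted. RAD17 had the lowest value of the first set and MDC1 of the mediators with every strong treatment, so without them both medians would be less negative. In the spindle arm the mitotic kinases and cyclins had the lowest medians, -1.33, -1.32 and -1.44, the checkpoint core stood at -0.64, -0.59 and -0.71 and the kinetochore genes at -0.78, -0.71 and -0.53. By library size alone the strongly lower members of the ATM/ATR arm numbered 11, 10 and 12, and on the mitochondrial scale 15, 15 and 14 in it and 16, 16 and 14 in the spindle arm. Strongly lower genes among all 16036 rose too, from 3422, 3336 and 3027 to 4611, 4426 and 4041 by library size and 6227, 5902 and 5357 on the mitochondrial scale.

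Levels per kilobase of transcript with DMSO differed between arms in range. The spindle arm ran from 3.35 CPM per kilobase for CENPE to 244.9 for CDC20, with CCNB1 (166), BIRC5 (156), PLK1 (109) and AURKA (90.7) next. In the ATM/ATR arm CDC25B stood highest at 78.8 and PKMYT1 next at 18.7, and apart from RAD17 and MDC1 the lowest was RNF8 at 2.88, near RAD9A (3.55), ATRIP (4.08), CHEK2 (4.33) and ATM (4.75).

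The members' changes were set against gene length as a description, with no test of members against other genes. Across the 43 members the Spearman correlation of log2 FC with genomic span was -0.05, 0.04 and 0.11 (lapatinib combination, nilotinib combination, high dose), and across all tested genes with a span, 15855 genes that share the same libraries, it was -0.19, -0.15 and -0.16. With transcript length it was 0.11, 0.10 and 0.23 in the members and -0.30, -0.27 and -0.29 across 15423 genes. With exon number it was -0.18, -0.13 and 0.02 in the members and -0.09, -0.05 and -0.03 across these genes. The gene with the longest span among those that rose was ATM, with 146036 bases. Among genes under 10 kb the median log2 FC of all 3949 genes was 0.41, 0.31 and 0.32, while the 4 members of that size (RAD9A, PKMYT1, AURKB and CDC20) had medians of -0.73, -0.78 and -0.89.

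In the promoter windows the arms held different elements. RefSeq's windows reach from 250 bases before to 50 after the start and were found for 34 of 43 members and 27305 genes. They were not found for HUS1, WEE1, PKMYT1, BUB3, TTK, KNL1, KNTC1, AURKA and BIRC5. A CHR was found in 12 of 16 spindle windows (75%) and 3 of 18 ATM/ATR windows (16.7%), against 24.3% of all genes. An E2F-type element was found in 9 of 18 ATM/ATR windows (50.0%) and 4 of 16 spindle windows (25%), against 13.1% of all genes. CCAAT was frequent in both, in 11 of 18 (61.1%) and 11 of 16 (68.8%), against 35.7%. A CHR together with CCAAT was found in 8 spindle windows (50.0%) and 3 ATM/ATR windows (16.7%), against 9.49% of all genes.

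The elements of members that fell most were set beside those of the others, with no test. Of the 9 windows of members strongly lower with all 3 strong treatments, 4 (44.4%) held a CHR, and of the other 25 windows 11 did (44%). CCAAT was in 5 of the 9 and 17 of the 25 (55.6% and 68.0%), and an E2F-type element in 4 of the 9 and 9 of the 25 (44.4% and 36.0%). In the last 150 bases of each window, which end 50 bases after the start, a CHR was in 4 of the 9 and 8 of the 25 (44.4% and 32.0%). This stretch is not the printed one, and the E2F-type match shown for CCNB1 lies outside it. By arm, in the same 150 bases, CHR, CCAAT and E2F-type elements were found in 11, 8 and 1 spindle windows and 1, 9 and 6 ATM/ATR windows, against 11.3%, 22.0% and 7.28% of all genes. CCNB1 and CCNB2, PLK1 and CDC20, whose lines above each hold a CCAAT and a CHR, had log2 FC of -1.33, 0.08, -0.99 and -0.58 with the lapatinib combination, and TIMELESS, with a CCAAT and the E2F-type match past its start, and TIPIN, with a CCAAT alone, 0.60 and -0.80. Only the first window listed for each gene and only the spellings given above were searched. Elements near other starts or spelled otherwise would be missed, so the shares do not show whether a gene's fall is related to an element. A match is a string of letters and no measure of binding.

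**Figure D5:**
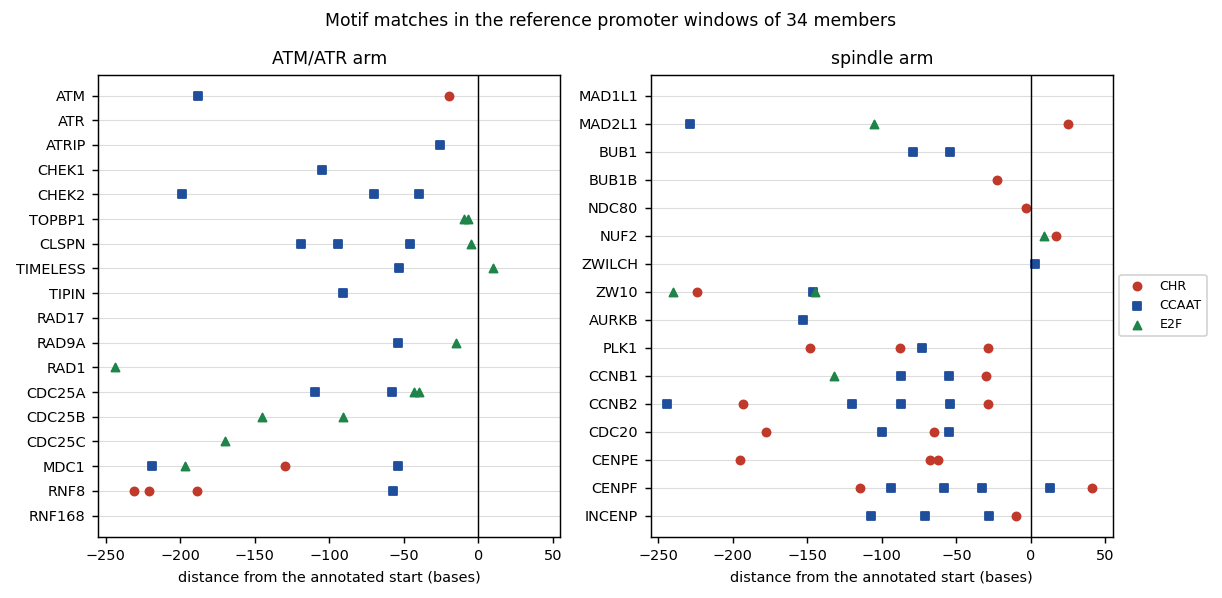
Distance in bases from the annotated start (horizontal axis, negative before the start) of matches to CHR, CCAAT and E2F-type elements in the promoter windows of 34 checkpoint genes (rows, by arm). CHR matches are found in 12 of 16 spindle windows and 3 of 18 ATM/ATR windows.

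Other genes of these pathways, from lists chosen with earlier results of these data known, moved in both directions. Their counts stand beside 37.8%, 37.3% and 36.8% of all tested genes lower and 34.3%, 33.7% and 33.1% higher (lapatinib combination, nilotinib combination, high dose), and nothing is read from a count near these shares. Of 23 other ATM/ATR signalling genes 12 were lower with each strong treatment and 5, 5 and 3 higher, with medians of -0.27, -0.27 and -0.35. ETAA1, which activates ATR independently of TOPBP1, was at 13.5 ± 0.844 CPM with DMSO and 1.46 ± 0.410 with the lapatinib combination (SD, n = 3 each), with log2 FC of -3.20, -3.52 and -2.57. TTI2, part of the complex that stabilises ATM and ATR kinases, fell, with log2 FC of -2.43, -2.60 and -2.19. BABAM1 and BABAM2, subunits of the BRCA1-A complex, were higher, by 0.68 and 0.67 with the lapatinib combination and 0.60 and 0.61 with the high dose. Rises smaller than the shift of all genes on the mitochondrial scale turn on that scale, here and below.

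Of 24 genes of the p53 response 11, 11 and 13 were lower and 9, 9 and 7 higher, with medians of -0.06, -0.17 and -0.37. MDM2, the ligase that degrades p53, fell (log2 FC -2.56, -2.50 and -1.70), and GADD45A rose by 1.89, 1.95 and 1.26, from 43.03 ± 4.37 CPM with DMSO to 159 ± 11.7 with the lapatinib combination. BBC3 (PUMA), at 0.469 ± 0.0898 CPM with DMSO, rose by 1.98, 1.72 and 1.104. XPC with the lapatinib combination (-2.12), TP53INP1 with the nilotinib combination (-1.96) and AEN with the high dose (-1.78) were the other falls of the largest size.

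Of 29 tested genes in the list of 30 other kinetochore and spindle genes 20, 17 and 19 were lower, 13, 13 and 12 strongly, and 3, 4 and 6 higher, with medians of -0.66, -0.59 and -0.94. BORA, the activator of AURKA towards PLK1, fell most with each (log2 FC -2.78, -2.85 and -2.64). Next were CDCA8 (borealin, of the chromosomal passenger complex) with the lapatinib combination (-2.34), SGO1 with the nilotinib combination (-2.29) and KIF18A with the high dose (-2.17). PRC1, which bundles the central spindle, was higher, by 0.53, 0.53 and 0.66, as were PMF1 with the lapatinib combination and high dose (0.62 and 0.47) and CENPT with the nilotinib combination (0.54). Of 20 genes of the anaphase-promoting complex and its regulators 12 were lower and 6 higher with each treatment, with medians of -0.46, -0.43 and -0.35. ESPL1 (separase), which cuts cohesin once the checkpoint is satisfied, fell (log2 FC -3.10, -3.18 and -2.18), as did CDC27 (-1.48, -1.26 and -1.196), while ANAPC15, needed to release the checkpoint complex, rose by 0.90, 0.85 and 0.86. UBE2C rose by 0.91 with the lapatinib combination and ANAPC16 by 0.64 and 0.69 with the other two.

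Of 12 regulators of mitotic genes 8, 8 and 6 were lower and 1, 1 and 4 higher, with medians of -0.55, -0.48 and -0.56. LIN52, of the DREAM complex that binds CHR elements, fell, with log2 FC of -2.45, -2.44 and -1.56. E2F4 fell with the combinations (-1.59 and -1.45) and LIN37 with the high dose (-1.39). MYBL2 was higher by 0.51, 0.54 and 0.54, and FOXM1 by 0.33 with the high dose. Of 17 S phase genes 7, 6 and 5 were lower and 8, 9 and 10 higher, with medians of 0.02, 0.20 and 0.30. CCNE2 (cyclin E2) fell, with log2 FC of -2.42, -2.68 and -2.21, and the next largest falls were of CDC6 with the lapatinib combination (-0.97), CCNE1 with the nilotinib combination (-1.07) and CDT1 with the high dose (-1.25). TYMS was higher by 0.69, 0.77 and 0.82, PCNA by 0.95 and 0.82 with the combinations and MCM5 by 0.55 with the high dose. At the low dose these lists held 3 called genes of 23 in ATM/ATR signalling, 2 of 24 in the p53 response, 1 of 29, 0 of 20, 2 of 12 and 0 of 17 in the rest, beside 4.31% of all tested genes lower and 1.78% higher.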

How the data were processed

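Per the labels, RNA was selected by its poly(A) tail, unstranded libraries were sequenced from both ends, and the authors deposited raw counts per gene, identified by NCBI gene ID, with no normalisation. The submitters' processing notes name HISAT2 2.1.0, featureCounts and DESeq2, with alignment to GRCh38. The annotation used for counting is not given in the sources used here. Library totals of 97612207 to 112229052 counts were near the number of read ends at the study's stated depth. Among low counts above 0, the only ones examined for this, 61.6% to 66.4% were even. Both point to both ends of a pair having been counted, which no source used here states, so halved counts were tried as an alternative.

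Groups were taken from the labels. Gene IDs were matched to NCBI symbols, 27745 of 28395 genes having one. The main fit used R 4.3.3 and edgeR 4.0.16 (glmQLFit and glmQLFTest) on all 21 libraries with 1 mean per group, filterByExpr, TMM factors and Benjamini-Hochberg adjustment over 16036 genes. The SE is the size of the log2 FC over the square root of the F statistic, and 2 was the prior count added before taking log2 CPM. The scripts were tested on simulated data. Alternatives were other scalings (DESeq2 size factors, library size, upper quartile, 13 mitochondrial mRNAs), filters, halved counts, DESeq2 1.42.0, only the groups compared, a replicate block, and each of 21 libraries left out in turn. The transcript-length covariate, the pair ratios and the arm without RAD17 and MDC1 were added after seeing the data. Exon overlaps came from GENCODE v44 on hg38 and promoter windows from RefSeq.

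The members and all gene lists were chosen with earlier results of these data known. All members may be named, with full values for the largest and smallest changes of each role, and in other lists the 2 largest called falls and rises per strong treatment.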

Additional observations from a re-analysis of the deposited data

Results flagged for a closer look

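The effect of low-dose THZ531 differed in the presence of lapatinib in 32 of 43 checkpoint genes and in the presence of nilotinib in 30 of 43, by the interaction term of edgeR's quasi-likelihood fit with Benjamini-Hochberg adjustment over all genes. With lapatinib 29 were more negative and 3 more positive, and with nilotinib 28 and 2. These were flagged because the same contrast differed between groups of samples. Of all 16036 genes, 32.0% and 28.2% with lapatinib and 31.2% and 25.6% with nilotinib were called in each direction, so changes of response were frequent outside the checkpoint genes too.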

How the results depend on the processing

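The calls of most members with the 3 strong treatments did not depend on a single choice. Leaving out 1 library at a time gave 35 to 37 members called with the lapatinib combination, 33 to 37 with the nilotinib combination and 33 to 35 at the high dose, 33 to 36 between doses, 32 to 33 and 30 to 32 interactions, 14 to 19 and 6 to 12 members between each combination and the high dose, 0 to 4 between the combinations and 2 to 7 at the low dose, where single libraries decide the count. The low-dose count was also 0 on the mitochondrial scale and 3 with no filter. Nilotinib alone had 1 member called under DESeq2 and 3 with the transcript-length index. Between the lapatinib combination and the high dose only the groups compared gave 8. Between the nilotinib combination and the high dose library size gave 15, the upper quartile 16, only the groups compared 2 and the index 19. Between the combinations the mitochondrial scale and only the groups compared gave 0 and the index 5. Strongly lower members of the ATM/ATR arm numbered 11, 10 and 12 by library size (lapatinib combination, nilotinib combination, high dose) and 15, 15 and 14 on the mitochondrial scale, and of the spindle arm 16, 16 and 14 on the latter. Among all 16036 genes strong falls rose as well, to 4611, 4426 and 4041 by library size and 6227, 5902 and 5357 on the mitochondrial scale.

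Directions that turned did so where the scaling itself moved all genes. With the lapatinib combination library size gave ATM -0.0402, HUS1 -0.30, PKMYT1 -0.03 and CCNB2 -0.24, and the mitochondrial scale ATM -0.39, TIMELESS -0.0882, HUS1 -0.66, PKMYT1 -0.38, CCNB2 -0.60 and BIRC5 -0.50. With the nilotinib combination library size gave HUS1 -0.28, PKMYT1 -0.0134 and CCNB2 -0.23, and the mitochondrial scale ATM -0.0385, HUS1 -0.59, PKMYT1 -0.33, RNF168 -0.0304, CCNB2 -0.55 and BIRC5 -0.31. At the high dose library size gave NUF2 -0.19 and ZWILCH -0.0155, and the mitochondrial scale ATM -0.0121, PKMYT1 -0.0212, NUF2 -0.48, ZWILCH -0.31, KNTC1 -0.48 and BIRC5 -0.19. The members' correlation of log2 FC with transcript length in place of span was 0.11, 0.10 and 0.23. In the last 150 bases of the promoter windows, 1 ATM/ATR window held a CHR and 1 spindle window an E2F-type element. The cause of these shifts was not tested beyond the scalings' own construction.

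Whether the replicate numbers pair the libraries cannot be decided from the data. Deviations of same-numbered libraries correlated at 0.0254 on average (lowest -0.275, highest 0.32) and those of other numbers at -0.0126. Of the 21 libraries, 11 correlated best with their own number. With the replicate block the counts of members called were 36, 37 and 35 with the strong treatments and 7 at the low dose, 3 calls were gained (CENPF with the lapatinib and nilotinib combination, -0.84 each, and MDC1 at the high dose, -1.06) and none was lost. RAD17 and MDC1 had too few counts for any statement.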
